A study of Homo sapiens with 15 samples.

Results

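Growth factor signalling in epithelial cells can be stopped at the surface in more than one place. Membrane-anchored ligands of the epidermal growth factor receptor (EGFR), such as amphiregulin and TGF-alpha, are cut loose by metalloproteases of the ADAM family, chiefly ADAM17, also called TNF-alpha converting enzyme. The freed ligand binds EGFR, which signals through the kinase ERK to immediate-early and feedback genes, and beta1-integrin on the same cells supports that signalling. The data compared here set 3 arrays of cells in which the proteases were inhibited against 3 arrays of cells in which EGFR or beta1-integrin itself was blocked, out of 15 arrays in all. The members were taken from the treatment labels alone, with no measured value used.

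All 6 arrays came from HMT3522 T4 cells, the malignant member of a human breast epithelial cell line series, grown in 3-dimensional laminin-rich extracellular matrix and labelled as reverted. The protease inhibitor group held 1 array each of GM6001, a broad hydroxamate inhibitor of matrix metalloproteases (MMPs); an inhibitor labelled only by its targets, MMPs and ADAMs; and TNF protease inhibitor-2. The blocker group held 1 array each of Tyrphostin AG 1478, a small-molecule inhibitor of the EGFR kinase; mAb225, an antibody that keeps ligand off EGFR; and AIIB2, a function-blocking antibody to beta1-integrin (ITGB1). The other 9 arrays were 3 of T4 cells without a named agent, 3 of nonmalignant S1 cells of the same series, and 1 each of T4 cells with PD98059, LY294002 or dominant-negative Rap1. Which samples received the vehicle named in the design text is unclear, and the labels carry no dose or time, so GM6001 and TNF protease inhibitor-2 are set side by side and not compared as compounds. Nothing says that the arrays came from separate cultures, so a p-value measures the spread between these samples only.

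The values are log2 levels from Affymetrix human expression arrays, deposited in a pair of tables. GM6001, the inhibitor of MMPs and ADAMs and the T4 samples lie in the first table with 8 samples, while TNF protease inhibitor-2 and all 3 blockers lie in the second with 7. The class comparison was therefore fitted by limma over all 15 samples with the table as a block, and TNF protease inhibitor-2 was also compared with the 3 blockers inside the second table, where no table term enters. In the class comparison TNF protease inhibitor-2 carries a weight of 0.556 and the other protease inhibitors 0.222 each. Each blocker carries -0.333. Through the table term, arrays of neither class enter the class difference too. S1 sample 3 carries 0.222 and LY294002 -0.222. S1 samples 1 and 2 carry -0.111 each, and PD98059 and dominant-negative Rap1 0.111 each. Of 12149 named genes, the 9111 brightest were tested. All 6 epithelial markers lay above the median gene, with mean levels over the markers of 11.06 to 11.30 in the protease inhibitor arrays and 11.30 to 11.63 in the blocker arrays. The mean levels of leukocyte (6.98 to 7.09), endothelial (6.87 to 6.89) and fibroblast and adipocyte markers (7.12 to 7.34, with 7.23 or more in the blockers and 7.17 or less with protease inhibitors) lay below the median gene's level of 7.66, and 1 of 8, 0 of 7 and 2 of 11 of these markers lay above it. The arrays of dominant-negative Rap1, T4 sample 3 and S1 sample 3 stood apart from the rest in pairwise counts of differing genes. Without these 3 the class comparison below gave 1 gene and that of TNF protease inhibitor-2 gave 11.

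No gene separated the classes after adjustment. With limma and Benjamini-Hochberg adjustment over all genes, 0 of 9111 genes (0%) passed 0.05 between protease inhibitors and blockers, and the smallest adjusted p was 0.958. At an unadjusted p under 0.05 there were 405 genes (4.45%), 181 higher and 224 lower with protease inhibitors. TNF protease inhibitor-2 against the 3 blockers in the second table gave 0 genes (0%) as well, with 262 (2.88%) at an unadjusted p under 0.05, 137 higher (1.5%) and 125 lower (1.37%). Weighting each array by its estimated quality (limma arrayWeights) gave 129 genes for the class comparison, 75 higher and 54 lower, and 378 for TNF protease inhibitor-2. The median standard error of a class difference was 0.16 on the log2 scale, and of a TNF protease inhibitor-2 difference 0.19.

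Against T4 cells both classes moved many genes. With protease inhibitors 419 genes were higher (4.6%) and 567 lower (6.22%) than in T4 at an adjusted p under 0.05, 986 or 10.8% of those tested. With the blockers 231 were higher (2.54%) and 330 lower (3.62%), 561 or 6.16%. These counts do not show which class moved more genes. The median standard error of a difference from T4 was 0.14 with protease inhibitors and 0.18 with blockers. With quantile normalization across both tables and no block the order was reversed, with 725 genes for protease inhibitors and 1243 for blockers. Both comparisons use the same 3 T4 samples, and the blockers share no table with T4, so their difference from T4 depends on the table term throughout. Leaving out 1 array moved the protease inhibitor count by over 1.5 times for T4 sample 1 (580), GM6001 (449), the inhibitor of MMPs and ADAMs (368) and TNF protease inhibitor-2 (657). It did so for the blocker count with Tyrphostin AG 1478 (194), mAb225 (210), the same protease inhibitors (352, 287 and 363), T4 sample 1 (288) and S1 samples 1 and 2 (333 and 346).

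Arrays of 1 table can be set against each other without a table term. Tyrphostin AG 1478 and mAb225, which both act on EGFR, differed at least 2-fold in 0 of 9111 genes, and GM6001 and the inhibitor of MMPs and ADAMs in 3 genes (0.0329%). TNF protease inhibitor-2 differed from Tyrphostin AG 1478 in 39 genes (0.428%) and from mAb225 in 54 (0.593%). AIIB2 differed from Tyrphostin AG 1478 in 144 genes (1.58%), from mAb225 in 173 (1.9%) and from TNF protease inhibitor-2 in 127 (1.39%). By this count the integrin antibody lay farther from the EGFR blockers than the protease inhibitor did. Each agent is 1 array, so these are differences between libraries, with no test.

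**Figure D1:**
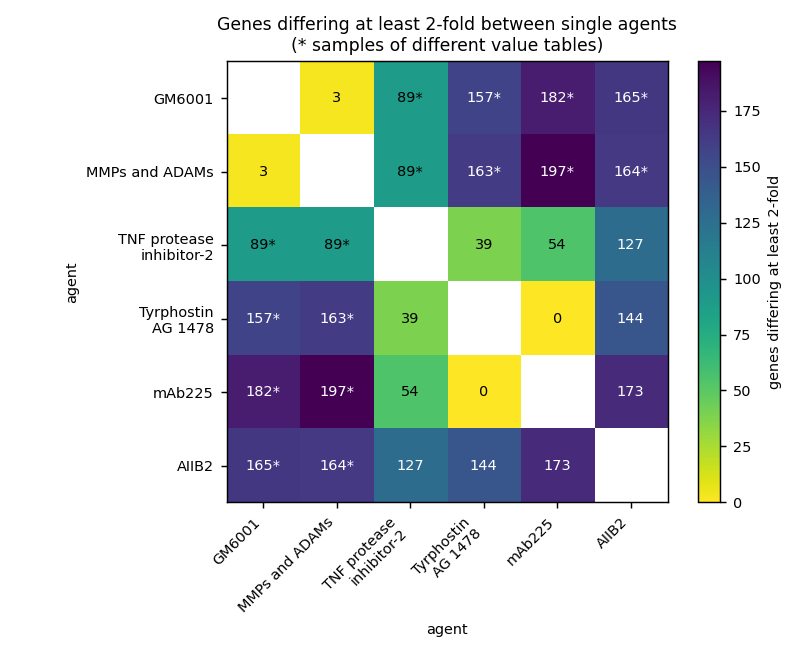
Number of genes, of 9111, whose log2 levels differ by at least 1 between each pair of the 6 agents; rows and columns are agents, and an asterisk marks a pair split between the value tables. The lightest cells are GM6001 with the inhibitor of MMPs and ADAMs (3 genes) and Tyrphostin AG 1478 with mAb225 (0 genes), and AIIB2 differs from every other agent by 127 genes or more.

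Of 4 tested ligands of EGFR and its family receptors, 3 fell against T4 with protease inhibitors and 2 with blockers. HBEGF, heparin-binding EGF-like growth factor, stood at 9.96, 10.55 and 9.70 in T4, at 7.20 with GM6001, 7.26 with the inhibitor of MMPs and ADAMs and 7.32 with TNF protease inhibitor-2, and at 7.42, 7.38 and 7.50 with Tyrphostin AG 1478, mAb225 and AIIB2. Every treated array lay more than 2 log2 units below every T4 array, and the protease inhibitor arrays lay just below the blocker arrays. HBEGF fell by 2.85 ± 0.18 (SE) with protease inhibitors and fell by 2.75 ± 0.23 with blockers (adjusted p 4.93e-06 and 9.72e-05, limma), while the class difference was -0.10 with a 95% interval from -0.54 to 0.33.

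EREG, the ligand epiregulin, read 9.13, 8.80 and 9.91 in T4, 6.89, 6.93 and 6.71 in the protease inhibitor arrays and 6.61, 6.61 and 6.93 in the blocker arrays. It fell by 2.41 ± 0.31 with protease inhibitors and fell by 2.48 ± 0.39 with blockers (adjusted p 0.000836 and 0.00513, limma), and the classes overlapped. TGFA, the ligand TGF-alpha, read 9.02, 8.37 and 9.81 in T4, 7.42, 7.26 and 7.50 with protease inhibitors, and 7.43, 7.52 and 7.35 with blockers. TGFA fell with protease inhibitors by 1.62 ± 0.34 (adjusted p 0.0114, limma). With blockers its difference of -1.47 ± 0.43 did not pass (adjusted p 0.0688). The class difference was -0.15, with an interval from -0.97 to 0.67. NRG1, a ligand of ERBB3 and ERBB4, was 1 of the 4 ligands tested and passed against T4 in neither class. BTC and EGF were among the dimmest genes and were not tested. Of 8 ligands listed, 6 had a probe set paired with 1 gene. Amphiregulin was not among those 6, so its level is not described.

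No receptor of the family passed between the classes. EGFR read 12.45, 12.40 and 12.75 with protease inhibitors and 13.11, 12.96 and 12.17 with blockers, a class difference of 0.13 with an interval from -0.80 to 1.05. The AIIB2 array was the lowest of the 6 and the arrays of both EGFR blockers the highest. Other EGFR probe sets gave class differences of 1.08, 1.01, 0.13, 0.09 and 0.02, none at an unadjusted p under 0.05 (limma). ERBB2, the partner receptor of EGFR, read 7.84, 7.46 and 7.80 against 8.43, 8.32 and 7.69, and its class difference was -0.13 (interval from -0.62 to 0.37). LRIG1 and CBL, which lead EGFR to degradation, differed between classes by 0.23 (interval from -0.39 to 0.86) and 0.11 (interval from -0.09 to 0.32). ERBB3, ERBB4 and SOCS3 were too dim to test.

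ERK output, meaning the immediate-early and feedback genes switched on by the pathway, was lower than in T4 in both classes when taken over the list. Of 22 such genes tested, 12 fell with protease inhibitors, where 6.22% of all genes did, and 9 with blockers, where 3.62% did. None rose, with medians of -1.36 and -1.08 beside medians of -0.01 over all genes in both comparisons. Between the classes 11 were higher and 11 lower, the median was -0.04, and none reached an unadjusted p of 0.05. The blocker arrays were not alike in this list. AIIB2 lay at least 2-fold above both EGFR blockers and TNF protease inhibitor-2 in 4 of the 22, where 0.615% of all genes did. These were EGR1, FOS, IER2 and IER3, with class differences of -1.14, -0.89, -0.74 and -0.65. Their differences from T4 with blockers were -0.27, -0.92, -1.53 and -3.54. In the second table alone TNF protease inhibitor-2 gave 6 higher and 16 lower values than the blockers, a median of -0.10 and 1 gene, lower, at an unadjusted p under 0.05. It lay below all 3 blockers in 10 of the 22, where 25% of all genes did. DUSP6, a phosphatase that acts on ERK, read 11.51, 11.69 and 10.85 in T4, then 8.19, 7.58 and 7.54 with protease inhibitors and 7.70, 7.58 and 8.42 with blockers. DUSP6 fell by 3.53 ± 0.48 with protease inhibitors and fell by 3.29 ± 0.61 with blockers (adjusted p 0.0012 and 0.0116, limma).

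PHLDA1, an ERK-induced gene, read 11.13, 11.06 and 10.52 in T4, 7.70, 7.53 and 7.42 with protease inhibitors and 7.08, 7.21 and 7.39 with blockers. Its class difference was 0.13, with an interval from -0.34 to 0.59. SPRY4, a feedback inhibitor of receptor tyrosine kinases, fell by 2.54 ± 0.13 with protease inhibitors and fell by 2.60 ± 0.17 with blockers. FOSL1, a subunit of the AP-1 transcription factor, fell by 2.25 ± 0.12 and fell by 2.33 ± 0.16. The 95% interval of the class difference ran from -0.26 to 0.38 for SPRY4 and from -0.22 to 0.38 for FOSL1. IER3, an immediate-early gene, read 8.04, 7.83 and 8.04 with protease inhibitors and 8.32, 8.21 and 9.62 with blockers, where AIIB2 was the highest, and its class interval ran from -1.48 to 0.17. All 6 treated arrays lay below the T4 readings of 12.26, 11.98 and 12.10.

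**Figure D2:**
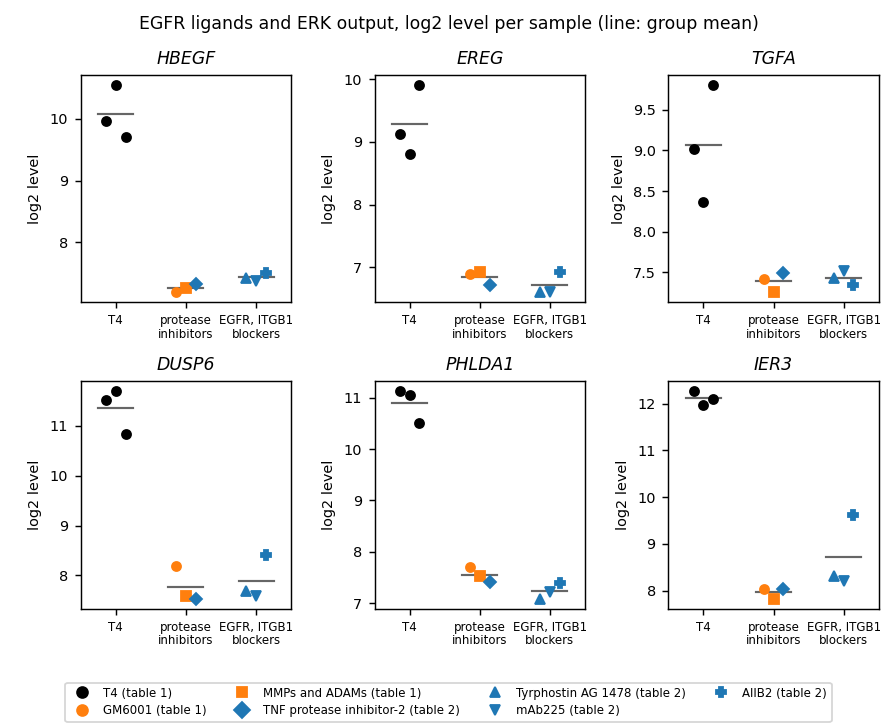
Log2 level of 3 EGFR ligands and 3 ERK output genes in each T4, protease inhibitor and blocker sample; each point is 1 array, the marker shape gives the agent, black marks T4, orange the agents of the first table, blue those of the second, and the line is the group mean. In HBEGF, EREG, TGFA, DUSP6, PHLDA1 and IER3 all 6 treated arrays lie below all 3 T4 arrays, and in IER3 the AIIB2 array at 9.62 lies above the other treated arrays.

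Among the proteases and their inhibitors, 0 of 20 tested genes reached an unadjusted p of 0.05 between the classes. ADAM17 read 8.96, 8.87 and 9.09 with protease inhibitors and 9.11, 9.28 and 9.27 with blockers, a difference of -0.05 (interval from -0.33 to 0.23). ADAM10, the other main sheddase, differed by -0.01 (interval from -0.54 to 0.52), ADAM9 by 0.14 (from -0.21 to 0.49), ADAM15 by -0.01 (from -0.47 to 0.46) and MMP14, a membrane-bound MMP, by -0.06 (from -0.34 to 0.23). ADAM15 rose against T4 with protease inhibitors by 0.77 ± 0.19 (adjusted p 0.0265, limma) and read the same 0.77 ± 0.24 with blockers, where it did not pass (adjusted p 0.085).

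TIMP1, a secreted inhibitor of MMPs, was the member of that list with the widest gap in the second table. It read 10.81, 10.63 and 10.86 with the protease inhibitors and 11.69, 11.49 and 12.21 with Tyrphostin AG 1478, mAb225 and AIIB2, so the classes did not overlap. All 3 protease inhibitor arrays lay below all 3 blocker arrays in 1001 of the 9111 genes (11%). TIMP1 fell against T4 with protease inhibitors by 1.48 ± 0.30 (adjusted p 0.0106, limma), and its -0.91 ± 0.39 with blockers did not pass (adjusted p 0.195). The class difference itself was -0.57 (interval from -1.31 to 0.16), and TNF protease inhibitor-2 alone lay 0.93 below the blockers at an unadjusted p of 0.0361 and an adjusted p of 1. TIMP2 differed by -0.17 (interval from -0.47 to 0.13), and TIMP3 by -0.29 (from -1.47 to 0.89).

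Of 23 membrane proteins known to be shed, 3 had an unadjusted p under 0.05 between the classes, all lower with protease inhibitors, where 2.46% of all genes did. They were the heparan sulphate proteoglycan SDC1 (-0.52 ± 0.15), the hyaluronan receptor CD44 (-0.42 ± 0.14) and the ephrin receptor EPHB4 (-0.32 ± 0.13), and none passed adjustment (adjusted p 0.958 for each, limma). CD44 read 11.11, 10.97 and 11.10 against 11.26, 11.53 and 11.62. These are transcript levels, and shedding of the proteins was not measured.

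Integrin genes were lower than in T4 under both blocks. Of 13 subunits tested, 7 fell against T4 with protease inhibitors, where 6.22% of all genes did, and 6 with blockers, where 3.62% did, and none rose. ITGA5, the alpha chain of the fibronectin receptor, read 9.60, 9.02 and 10.27 in T4, 7.41, 7.27 and 7.43 with protease inhibitors and 7.53, 7.49 and 7.70 with blockers. ITGA5 fell by 2.30 ± 0.28 with protease inhibitors and fell by 2.18 ± 0.36 with blockers, with a class difference of -0.12 (interval from -0.81 to 0.57). ITGA2 and ITGA6, alpha chains of collagen and laminin receptors, fell by 1.82 ± 0.23 and fell by 1.97 ± 0.37 with protease inhibitors, and with blockers ITGA2 fell by 2.01 ± 0.29 and ITGA6 fell by 2.13 ± 0.47. ITGB1, the target of AIIB2, did not pass in either class; its class difference was -0.21 (interval from -0.46 to 0.03), and it read 12.53 with AIIB2 and 12.77 and 12.80 with the EGFR blockers. Across the subunits tested the class differences ran from -0.32 for ITGB4 to 0.26 for ITGB8. The sign for ITGB4 depended on the probe set, and its other probe sets gave 0.45, 0.38 and 0.05.

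Hydroxamates such as GM6001 bind the zinc of metalloproteases, and metallothioneins are zinc-responsive genes. MT2A read 13.39, 13.38 and 13.39 with protease inhibitors and 13.37, 13.36 and 13.36 with blockers, a class difference of -0.01 (interval from -0.20 to 0.18). The other metallothioneins tested differed by -0.19 for MT1X (interval from -0.64 to 0.27) at most. In the second table alone 13 of the 16 genes of the metallothionein and zinc transport list had higher values with TNF protease inhibitor-2 than with the blockers (median 0.07), 2 of them at an unadjusted p under 0.05 where 1.5% of all genes were, and 8 lay above all 3 blockers, where 26.8% of all genes did. MT1M read 12.34 with TNF protease inhibitor-2 and 11.9965, 12.03 and 12.05 with the blockers, a difference of 0.32 that did not pass adjustment (adjusted p 1, limma). SLC30A1, a zinc exporter, was the 1 gene of 16 in this list with an unadjusted p under 0.05 between the classes, where 4.45% of all genes did, so the count is near the background. It read 9.09, 8.96 and 9.74 with protease inhibitors and 8.81, 8.91 and 9.31 with blockers, which overlap, and its class difference of 0.69 ± 0.23 had an adjusted p of 0.958 (limma). SLC39A8, a zinc and manganese importer, read 9.70, 9.80 and 8.997 against 8.98, 8.91 and 8.40, and its class difference was 1.03 ± 0.67.

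Of the 38 gene lists, cholesterol synthesis had the highest share of tested genes at an unadjusted p under 0.05 between the classes. Cells make cholesterol from acetyl-CoA through mevalonate, and the transcription factor SREBP2 raises the whole route when sterols are scarce. Of 18 genes tested, 16 had higher values with protease inhibitors, with a median of 0.29 beside 0.00 over all genes, and 9 had an unadjusted p under 0.05, all of them higher, where 1.99% of all genes did. None passed adjustment. All 3 protease inhibitor arrays lay above all 3 blocker arrays in 8 of the 18, where 1043 of 9111 genes (11.4%) did. Inside the second table TNF protease inhibitor-2 lay above all 3 blockers in 11 of 18, where 26.8% of all genes did, and the median was 0.30. These arrays also enter the class comparison, so the medians are not independent. The list was chosen with earlier results of these data known. Over 27 other settings its class median ran from 0.25 to 0.60.

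DHCR7, which makes cholesterol from its last precursor, read 9.13 with GM6001, 9.13 with the inhibitor of MMPs and ADAMs and 9.17 with TNF protease inhibitor-2, and 8.47, 8.29 and 8.76 with Tyrphostin AG 1478, mAb225 and AIIB2. The classes did not overlap, and both lay below the T4 readings of 9.42, 9.79 and 10.06. The class difference was 1.15 ± 0.34 (unadjusted p 0.00579, adjusted p 0.958, limma), but 0.66 ± 0.35 for TNF protease inhibitor-2 in its own table (unadjusted p 0.0883). S1 sample 3, with a weight of 0.222 in the class difference, read 9.74 for DHCR7 while the other S1 samples read 7.98 and 7.88. Without that sample the class difference of DHCR7 was 0.80.

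INSIG1, which holds the SREBP complex in the endoplasmic reticulum and is itself an SREBP target, read 9.73, 9.82 and 9.75 with protease inhibitors and 9.18, 9.21 and 8.89 with blockers. Its class difference was 0.92 ± 0.22 (unadjusted p 0.00121) and its difference for TNF protease inhibitor-2 alone 0.66 ± 0.24 (unadjusted p 0.02; adjusted p 0.958 and 1, limma). MSMO1, a sterol C4-methyl oxidase, read 11.25, 11.44 and 11.35 against 10.54, 10.57 and 10.98. Its differences were 0.83 ± 0.17 and 0.65 ± 0.20. IDI1, which isomerises isopentenyl diphosphate, read 10.87, 10.87 and 11.16 against 10.37, 10.43 and 10.65. Its difference was 0.69 ± 0.14 for the classes and 0.67 ± 0.18 for TNF protease inhibitor-2, the smallest unadjusted p of all genes higher in the class comparison (0.000349). In all 3 genes the classes did not overlap and the T4 samples lay above both.

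Against T4, 4 of the 18 fell with protease inhibitors, where 6.22% of all genes did, and 9 with blockers, where 3.62% did, and none rose in either. IDI1 fell by 0.71 ± 0.12 with protease inhibitors and fell by 1.40 ± 0.16 with blockers. MSMO1 fell by 0.60 ± 0.15 and fell by 1.43 ± 0.20. SREBF2, the gene of SREBP2, gave differences from T4 of -0.02 and 0.01. Among the fatty acid synthesis genes, SCD, the stearoyl-CoA desaturase that SREBP also drives, read 10.78, 10.57 and 11.01 with protease inhibitors and 10.35, 10.35 and 10.53 with blockers, with T4 at 11.76, 11.79 and 11.91. Its class difference was 1.45 ± 0.41 (unadjusted p 0.00399, adjusted p 0.958, limma). SCD was the only gene to pass when TNF protease inhibitor-2 was left out (adjusted p 0.0294), a fit in which both remaining protease inhibitors lie in the other table from the blockers; in the second table alone SCD differed by 0.60 ± 0.26. S1 sample 3 read 12.07 for SCD and the other S1 samples 9.35 and 9.26, and without that sample the class difference of SCD was 1.07.

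**Figure D3:**
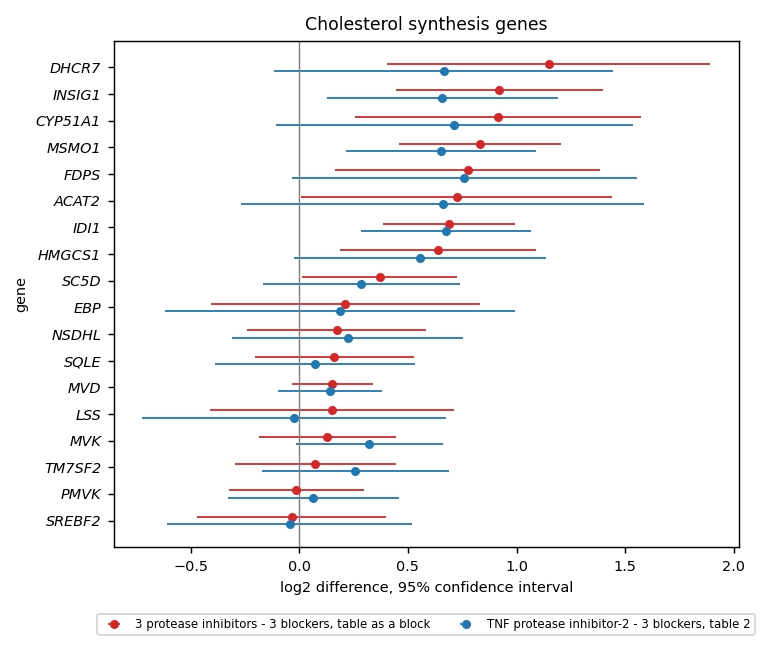
Log2 difference with its 95% confidence interval for the 18 cholesterol synthesis genes tested, ordered by the class difference; circles in red are all 3 protease inhibitors minus all 3 blockers with the table as a block, circles in blue are TNF protease inhibitor-2 minus the 3 blockers in the second table. In the class comparison 16 of 18 lie to the right of 0, and the interval for IDI1, MSMO1 and INSIG1 stays above 0 in both. The comparisons share the 3 blocker arrays and TNF protease inhibitor-2, so they are not independent.

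Promoter stretches of DHCR7, INSIG1 and MSMO1 are shown as examples. The classes did not overlap in these genes, and their windows hold a short motif that most of the list shares. Both points hold for HMGCS1 and FDPS as well, which are not shown. CCAAT, the core bound by the factor NF-Y that acts beside SREBP, was searched on both strands in RefSeq windows of 300 bases, 250 before and 50 after the start (GRCh38.p14). It was found in 13 of 16 cholesterol genes tested with a window (81.2%). IDI1, CYP51A1 and ACAT2, in which the classes also did not overlap, were not among the 13. The share was 37.8% over the 7501 windows of genes tested and 35.7% over all 27305 windows. A sterol element written TCACNCCAC was in 1 of the 16, in 1.0% of the windows of genes tested and in 1.15% of all windows. These are letter matches, not measured binding. Capitals mark CCAAT or its reverse complement ATTGG, and each stretch lies upstream of the start site.
DHCR7, minus strand, chr11:71448407-71448517: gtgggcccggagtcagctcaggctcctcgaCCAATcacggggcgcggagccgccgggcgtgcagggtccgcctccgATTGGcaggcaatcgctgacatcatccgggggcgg
INSIG1, plus strand, chr7:155297678-155297742: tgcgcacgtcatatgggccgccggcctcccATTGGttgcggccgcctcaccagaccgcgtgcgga
MSMO1, plus strand, chr4:165327454-165327668: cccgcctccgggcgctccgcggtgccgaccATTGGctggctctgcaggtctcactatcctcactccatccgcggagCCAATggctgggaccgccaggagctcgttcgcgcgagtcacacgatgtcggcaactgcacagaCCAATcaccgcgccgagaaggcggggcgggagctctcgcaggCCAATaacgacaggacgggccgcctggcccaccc

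Notch signalling also depends on ADAM proteases, which cut the receptor once ligand has bound, and HES1 is its best-known target. HES1 read 7.68 with GM6001, 7.50 with the inhibitor of MMPs and ADAMs and 8.11 with TNF protease inhibitor-2, and 8.96, 9.38 and 9.24 with Tyrphostin AG 1478, mAb225 and AIIB2. The T4 samples read 9.68, 9.99 and 9.55, so the protease inhibitor arrays lay below all 6 others without overlap. HES1 fell against T4 with protease inhibitors by 2.02 ± 0.29 (adjusted p 0.00169, limma), and its -0.66 ± 0.37 with blockers did not pass (adjusted p 0.32). The class difference was -1.35 ± 0.32, or 2.55-fold lower (unadjusted p 0.00134), and did not pass adjustment (adjusted p 0.958). TNF protease inhibitor-2 alone gave -1.08 ± 0.39 in the second table (unadjusted p 0.0185, adjusted p 1). A second probe set of HES1 gave -1.06 for the classes, and the third, near the lowest signals on the arrays, gave 0.01.

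The HES1 promoter is shown because HES1 was the Notch gene below the unadjusted threshold. TGGGAA, the core bound by the Notch partner RBPJ, was searched on both strands. It occurs in 24.3% of all windows, in 21.6% of those of genes tested and in 2 of 10 Notch genes tested with a window. In HES1 it occurs 2 times, in capitals. This is a letter match, not measured binding.
HES1, plus strand, chr3:194136034-194136113: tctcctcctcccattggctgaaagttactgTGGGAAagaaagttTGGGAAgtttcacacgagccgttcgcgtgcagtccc

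HES1 was the 1 Notch gene of 12 tested with an unadjusted p under 0.05, near the 4.45% of all genes, and the list's median was -0.07. JAG1, a Notch ligand, fell in both classes, by 1.68 ± 0.33 with protease inhibitors and fell by 1.62 ± 0.42 with blockers (adjusted p 0.00808 and 0.043, limma), with a class difference of -0.06. HEY1, another target, differed by -0.11 between classes by its brighter probe set and by -0.27 by the other (unadjusted p 0.308 and 0.005 in a limma fit over all probe sets), and the receptor NOTCH1 by -0.24 (interval from -0.97 to 0.49).

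The list medians in the class comparison ran from -0.35 for keratinocyte differentiation to 0.50 for DNA replication. All 15 keratinocyte genes tested had lower values with protease inhibitors, and 1 array stood out. AIIB2 lay at least 2-fold above Tyrphostin AG 1478, mAb225 and TNF protease inhibitor-2 in 7 of the 15 genes, where 0.615% of all genes did. SPRR1B, a cornified envelope protein, read 12.26 with AIIB2 and between 7.32 and 7.61 in the other 5 arrays. Keratin 1 (KRT1) read 10.28 with AIIB2 and from 6.84 to 7.09 in the others. Without AIIB2 the list's class median was -0.03.

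DNA replication had higher values with protease inhibitors in 26 of 27 genes and mitosis in 27 of 27 (median 0.23), with 0 genes of either list at an unadjusted p under 0.05. TNF protease inhibitor-2 lay above all 3 blockers in all 27 mitosis genes tested, where 26.8% of all genes did. The proliferation marker MKI67 read 8.38, 8.38 and 9.62 with protease inhibitors and 9.34, 9.13 and 9.13 with blockers. Its values split by table rather than by class, and its interval ran from -0.94 to 1.35. Without TNF protease inhibitor-2 the mitosis median was 0.06, and the DNA replication median was 0.75 with 27 of 27 values higher. Interferon response genes had higher values in 21 of 27 (median 0.22), with 3 higher at an unadjusted p under 0.05, where 1.99% of all genes were, of which IFI44L rose against T4 with protease inhibitors by 1.06 and read 0.20 above T4 with blockers. Ribosomal protein genes had lower values in 28 of 28 (median -0.18), and in 16 of 28 in the second table alone (median -0.01). Heat shock proteins split, with 2 genes higher and 3 lower of 15 at an unadjusted p under 0.05 (median 0.04), where 1.99% and 2.46% of all genes did. The chaperone DNAJA1 read 11.06, 11.14 and 10.85 with protease inhibitors against 10.17, 10.02 and 10.79, while the small heat shock protein CRYAB read 8.86, 9.27 and 9.07 against 10.17, 9.96 and 9.88.

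**Figure D4:**
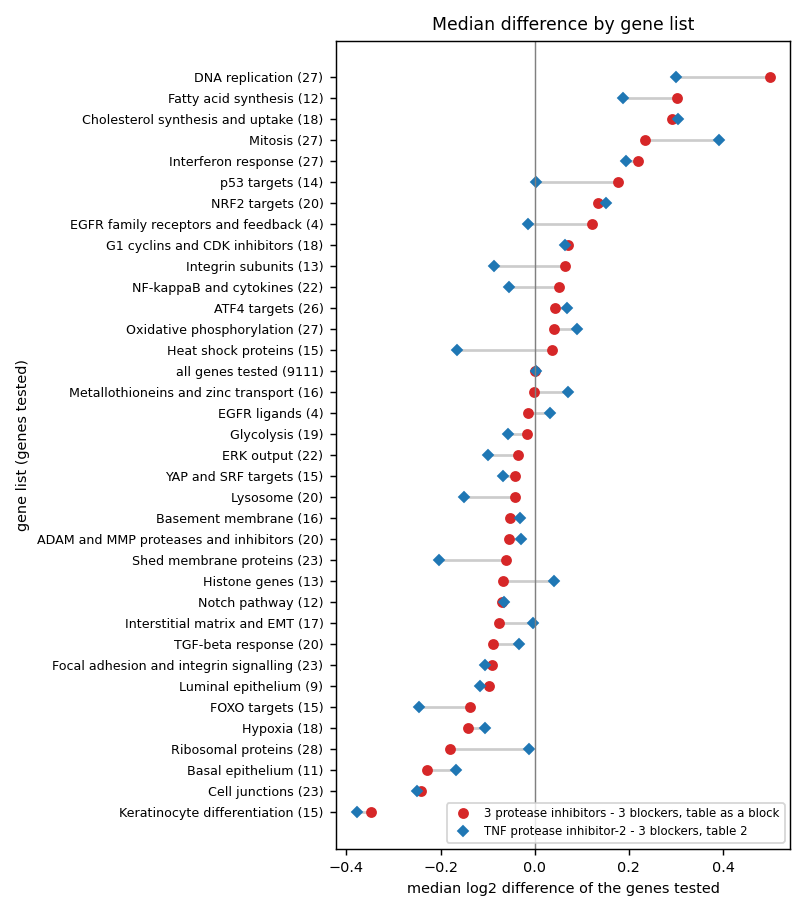
Median log2 difference of the tested genes in each gene list, with the number tested in brackets; circles are all 3 protease inhibitors minus all 3 blockers with the table as a block, diamonds TNF protease inhibitor-2 minus the 3 blockers in the second table. DNA replication (0.50) and keratinocyte differentiation (-0.35) lie at the ends, and cholesterol synthesis (0.29 and 0.30) is nearly the same in both comparisons. The comparisons share the 3 blocker arrays and TNF protease inhibitor-2, so they are not independent.

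By unadjusted p, the 10 genes with the firmest higher values with protease inhibitors were IDI1, SKP2, MSMO1, NME4, INSIG1, CYP1B1, ZNF767P, RSRP1, GSTM3 and ANKS1A; none passed adjustment. SKP2, the ubiquitin ligase subunit that removes the cell cycle inhibitor p27, read 7.92, 8.10 and 7.996 with protease inhibitors and 7.51, 7.52 and 7.56 with blockers. Its arrays did not overlap, the class difference was 0.55 ± 0.11, and T4 at 7.77, 7.81 and 7.63 lay in between. CYP1B1, a cytochrome P450 induced through the aryl hydrocarbon receptor, read 7.90, 7.97 and 8.88 against 8.09, 7.71 and 8.10, where only TNF protease inhibitor-2 stood out. Its difference from T4 with blockers, a fall of 1.08 by the block fit (adjusted p 0.0469), was 0.05 with quantile normalization across both tables and no block.

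The 10 firmest lower ones were RTN1, TFE3, SLC38A1, HES1, ITPR3, ARHGDIA, FNBP1L, NPEPPS, SCAND1 and CDC42BPB. TFE3, a transcription factor of lysosome genes, read 9.14, 9.09 and 9.34 with protease inhibitors and 9.96, 10.002 and 9.86 with blockers. T4 read 8.95, 9.29 and 9.33, so the protease inhibitor arrays lay with T4 and the blockers above; the blockers' difference from T4 of 0.61 did not pass (adjusted p 0.0571, limma). SLC38A1, a glutamine transporter, read 11.26, 11.36 and 11.21 against 11.75, 11.83 and 11.99, a class difference of -0.63 ± 0.15. RTN1, a reticulon of the endoplasmic reticulum, rose against T4 in both classes, by 0.60 ± 0.16 and 1.39 ± 0.20 (adjusted p 0.0323 and 0.00302), with a class difference of -0.79 ± 0.18.

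For TNF protease inhibitor-2 alone, whose comparison holds the same blocker arrays, the 10 smallest unadjusted p in each direction fell on the following genes. Higher were ANKS1A, PDAP1, KCTD15, RSRP1, PAFAH1B3, EMP2, SYNM, IDI1, TPM2 and SUMO3, and lower were USP9X, COPS7A, PLCH2, ZBED1, FNBP1L, ASAP3, GADD45A, CDC42BPB, RTN1 and SLC38A1. ANKS1A read 8.88 with TNF protease inhibitor-2 and the same 8.22 in all 3 blocker arrays. USP9X, a deubiquitinase, read 10.21 against 10.97, 10.96 and 10.94, and GM6001 and the inhibitor of MMPs and ADAMs read 9.89 and 9.77 in the other table.

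TNF protease inhibitor-2 lay at least 2-fold above every blocker in 4 genes (0.0439%) and below every blocker in 3 (0.0329%), which are named here after their values were seen. Above were the apolipoprotein APOE (9.42 against 7.87, 7.88 and 8.15), the cytokine IL32 (8.59 against 7.22, 7.44 and 7.34), the troponin TNNT1 (9.21 against 8.01, 7.99 and 8.07) and XIST. The levels of XIST are not reported here. In the other table GM6001 and the inhibitor of MMPs and ADAMs read 9.20 and 9.20 for APOE, where T4 read 9.65, 9.89 and 7.86. These inhibitors read 7.92 and 7.85 for IL32 and 8.38 and 8.42 for TNNT1. Below were the transcription factor KLF4 (9.03 against 10.14, 10.34 and 10.83), the ubiquitin-activating enzyme UBA1 (10.49 against 11.54, 11.64 and 11.53) and the tropomyosin TPM1 (8.81 against 10.83, 10.91 and 9.84). None of these differences from the blockers passed (adjusted p 1 for each, limma). Against T4, IL32 fell by 1.29 ± 0.38 with protease inhibitors (adjusted p 0.0496, limma) and fell by 2.38 ± 0.48 with blockers (adjusted p 0.0175, limma). TNNT1 fell by 1.34 ± 0.35 (adjusted p 0.0301, limma) and fell by 1.92 ± 0.44 (adjusted p 0.028, limma). GM6001 and the inhibitor of MMPs and ADAMs were also fitted as a group against the blockers, with the table as a block. Their differences were 0.27 for APOE, 0.90 for IL32 and -0.16 for TNNT1. For KLF4, UBA1 and TPM1 they were -1.07, -0.31 and -1.56.

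**Figure D5:**
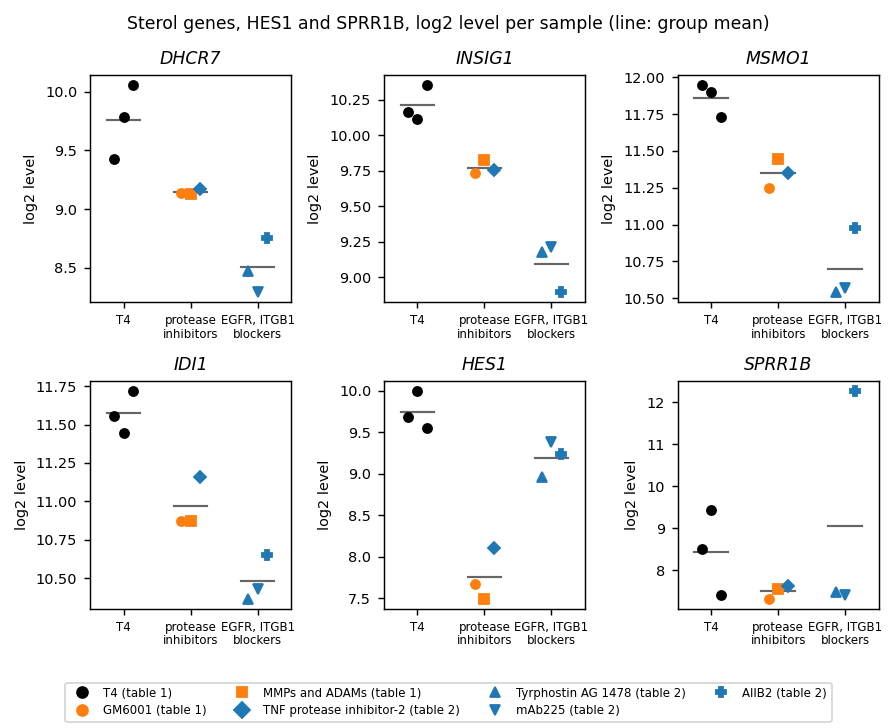
Log2 level of 4 sterol genes, HES1 and SPRR1B in each T4, protease inhibitor and blocker sample; each point is 1 array, the marker shape gives the agent, black marks T4, orange the agents of the first table, blue those of the second, and the line is the group mean. The 3 protease inhibitor arrays lie between T4 and the blockers in the sterol genes and below both in HES1, and the raised blocker mean of SPRR1B comes from the AIIB2 array at 12.26.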

How the data were processed

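The deposited values are log2 levels per probe set, as the value tables of the authors' arrays give them; the labels state no background correction, summary or normalization method. No scanner files were used. Of 22215 probe sets, 19707 were paired with 1 gene by the platform annotation, 614 with several and 1706 with none, and 188 were left out because the annotations of the tables differ. For each gene the probe set of highest mean over all samples was taken, and the dimmest 25% of genes were left out. Fits used limma 3.58.1 in R 4.3.3 (lmFit, eBayes, Benjamini-Hochberg, threshold 0.05, 2-sided), with the table as a fixed block and 9 residual degrees of freedom for the classes and 8 for TNF protease inhibitor-2, whose single array was taken to vary like the other groups. Sample medians lay between 7.33 and 7.40, and the number of arrays limits precision.

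Genes were named by rule: the 10 smallest p in each direction where under 5 passed, members of the ligand, receptor, integrin and zinc lists, and fixed proteases and ERK genes; others were named as members of the lists described, and the examples in them after their values were seen. The members and the 38 gene lists were chosen with earlier results of these data known. Alternatives varied the block, normalization, filter, probe set rule, weights, grouping and samples.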

Additional observations from a re-analysis of the deposited data

How the results depend on the processing

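The class count of 0 genes became 129 with array weights and 1 (SCD) without TNF protease inhibitor-2, so that leaving out single arrays gave 0 to 1; without the 3 arrays that stood apart (an alternative added after the data were seen) it was 1. For TNF protease inhibitor-2 the count became 378 with array weights, 2 with PD98059, LY294002 and dominant-negative Rap1 each as a group, and 11 without the arrays that stood apart, and was 0 to 0 without single arrays. Both counts stayed at 0 under the other planned settings, with 252 to 879 genes at an unadjusted p under 0.05 for the classes and 142 to 574 for TNF protease inhibitor-2. Settings for the differences from T4 were added after seeing the data. There the counts rose from 986 to 3128 with array weights and 1800 without the arrays that stood apart for protease inhibitors, and from 561 to 2210, 862 and, with quantile normalization across both tables and no block, 1243 for blockers; without single arrays they ran from 368 to 1205 and from 194 to 759. With that quantile normalization and no block, CYP1B1 (0.0497) and RSRP1 (0.26) turned sign against T4 with blockers. Of the class differences of 110 named genes, 57 turned sign under at least 1 setting while past no threshold. Each pairwise 2-fold count stayed within 1.5 times its value with quantile normalization within each table and with no filter. The cause of these changes was not tested. No paired analysis was possible because the groups compared carry no replicate numbers: each agent is a single array.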
